A study of Homo sapiens with 6 samples.

Results

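The genes described here are 10 enzymes of androgen synthesis and androgen interconversion: the aldo-keto reductases AKR1C1, AKR1C2 and AKR1C3, the steroid reductase genes SRD5A1 and SRD5A3, the hydroxysteroid dehydrogenases HSD17B4, HSD17B10 and HSD3B1, the cytochrome P450 CYP17A1, and the steroid sulfatase STS. They were taken by gene symbol and are 10 of the 57500 genes counted. RNA-seq had been run on 6 libraries of 22Rv1, a long-established line of human prostate cancer cells, with 3 libraries in each of 2 groups. The liver-derived group (LV) was 22Rv1 cells obtained from a liver metastasis, and the parental group (WT) was the 22Rv1 control, labelled as wild type. No added agent or engineered allele was given for either group, and both share the same cell line label and serum-supplemented medium. The labels give no host, no clone, no passage and no number of metastases for the LV cells, so LV stands for the liver-derived cells as sampled. The series was named for uneven expression of prostate-specific membrane antigen among metastases of prostate cancer, and the LV against WT comparison asks here how androgen-metabolising enzymes differed between metastasis-derived cells and their parent.

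Androgens are made from cholesterol in a chain of oxidations, reductions and side-chain cleavage. CYP17A1 turns pregnenolone and progesterone into the adrenal-type precursors dehydroepiandrosterone and androstenedione, and HSD3B1 turns dehydroepiandrosterone into androstenedione. AKR1C3 reduces androstenedione to testosterone, and SRD5A1 reduces testosterone to the more potent dihydrotestosterone. AKR1C1 and AKR1C2 are close relatives of AKR1C3 that inactivate dihydrotestosterone and progestins, and STS releases free steroids from their sulfates. In prostate tumours grown under androgen deprivation, these enzymes are known for allowing androgen production from adrenal precursors inside the tumour. HSD17B4, HSD17B10 and SRD5A3 carry steroid-enzyme names but have main roles elsewhere: peroxisomal fatty acid oxidation, mitochondrial isoleucine breakdown and tRNA processing, and dolichol synthesis for protein glycosylation.

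Library totals ranged from 28395265 to 53275252 counts, and 19255 genes passed the filter on low counts and were tested. In that test, edgeR's quasi-likelihood fit with Benjamini-Hochberg adjustment over all tested genes and a threshold of 0.05, 3375 genes (17.5%) were higher and 4101 (21.3%) lower in LV. The libraries of a group are called biological replicates, without a statement that they were separate cultures or derivations, so the p-values measure the spread between these libraries. WT replicate 2 stood apart: in a chi-square of gene counts divided by its degrees of freedom, where 1 would mean sampling noise alone, it reached 55.7 against WT replicate 1 and 62.7 against WT replicate 3. Pairs of LV libraries gave 2.43 to 3.15, and WT replicates 1 and 3 gave 2.26. Results that rest on that library are therefore given with and without it. All 14 prostate luminal markers were measurable in both groups, with 3 higher and 9 lower in LV and a summed level of 3704 to 3774 CPM (counts scaled to a common library size with TMM factors) in LV and 4898 to 5092 CPM in WT. Of 18 hepatocyte markers 6 were tested, with 3 higher and 2 lower, and they summed to 78.9 to 82.6 CPM in LV and 62.8 to 72.5 CPM in WT. ALB made up most of that sum, at 64.3, 67.5 and 65.6 CPM in LV against 51.9, 40.8 and 50.4 CPM in WT (edgeR adjusted p 0.00538). AMBP averaged 10.9 CPM in LV and 8.09 CPM in WT, and APOA1 0.628 CPM in LV and 0.184 CPM in WT (edgeR adjusted p 0.00473 and 0.00167), whereas CPS1, at 2.18 CPM in LV and 10.5 CPM in WT, and ASGR1, at 0.178 CPM in LV and 1.47 CPM in WT, were the lower ones. FGA had 0 reads in every library, APOB had 0, 1 and 1 reads in LV and 0, 2 and 1 in WT, and CYP3A4 had 1, 2 and 0 reads in LV and 2, 0 and 0 in WT. Markers of stroma, endothelium and leukocytes (8 of 13 tested) had none higher and 2 lower, and summed to 23.9 to 26 CPM in LV and 24.7 to 28.9 CPM in WT, with CDH5 and CD3E at 0 reads throughout.

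Of the 10 enzyme genes, 8 had enough reads to be tested, and 2, HSD3B1 and CYP17A1, did not. AKR1C1 was higher in LV, AKR1C3 was lower, and the other 6 did not pass the test. That is 1 of 8 (12.5%) higher against 17.5% of all tested genes, and 1 of 8 (12.5%) lower against 21.3% of all tested genes, and in either direction 2 of 8 against 38.8% of all tested genes. When WT replicate 2 was left out, 6 of 8 were called against 59.8% of all genes tested in that fit, so the order of the shares turned on that library. By CPM, all LV libraries lay above all WT libraries for 3 of the 8 enzymes, beside 26.1% of all tested genes, and below them for 2, beside 27.9%, in all 5 of 8 beside 54%. The median log2 fold change of the 8 was -0.02, with a range of -3.20 to 0.52, beside a median of -0.008 over all tested genes. Summed over the 10 genes the level was 571 to 574 CPM in LV and 635 to 637 CPM in WT. The libraries are bulk RNA, in which fewer cells expressing a gene and less of its RNA per cell cannot be told apart.

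Levels were compared between genes as TPM, a share of transcripts that takes gene length into account. The length used was that of all counted exons, such as 1115 bases for HSD17B10, 8231 for HSD17B4, 8765 for AKR1C1 and 4532 for AKR1C3. Orders and shares by TPM rest on these lengths. By CPM, without length, HSD17B4 (296 in LV, 315 in WT) lay above HSD17B10 (145 in LV, 173 in WT). HSD17B10 had the highest level in both groups, at 457 ± 10.3 TPM in LV and 559 ± 54 TPM in WT (SD, n = 3 each). HSD17B4 followed at 126 ± 1.56 TPM in LV and 138 ± 14.2 TPM in WT, and SRD5A3 came next at 51 ± 1.12 TPM in LV and 51.2 ± 3.87 TPM in WT. The most abundant transcripts were thus those of the enzymes with main roles outside androgen synthesis. AKR1C3 took the fourth place in WT, at 23.4 ± 2.02 TPM, above SRD5A1, AKR1C2, STS and AKR1C1 in that order. In LV the fourth place went to SRD5A1, at 15 ± 0.432 TPM, followed by AKR1C2, STS and then AKR1C1 and AKR1C3, whose ranges overlapped at 2.70 ± 0.333 and 2.51 ± 0.467 TPM. CYP17A1 and HSD3B1 were last in both groups, and their ranges overlapped each other. All other neighbours in both orders had ranges that did not overlap. The orders by TPM differed in the place of AKR1C3, which was the fourth of the 10 genes in WT and shared the lowest place of the 8 tested genes in LV. By CPM, AKR1C3 at 3.23 ± 0.591 lay below AKR1C1 at 6.75 ± 0.849 in LV.

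**Figure D1:**
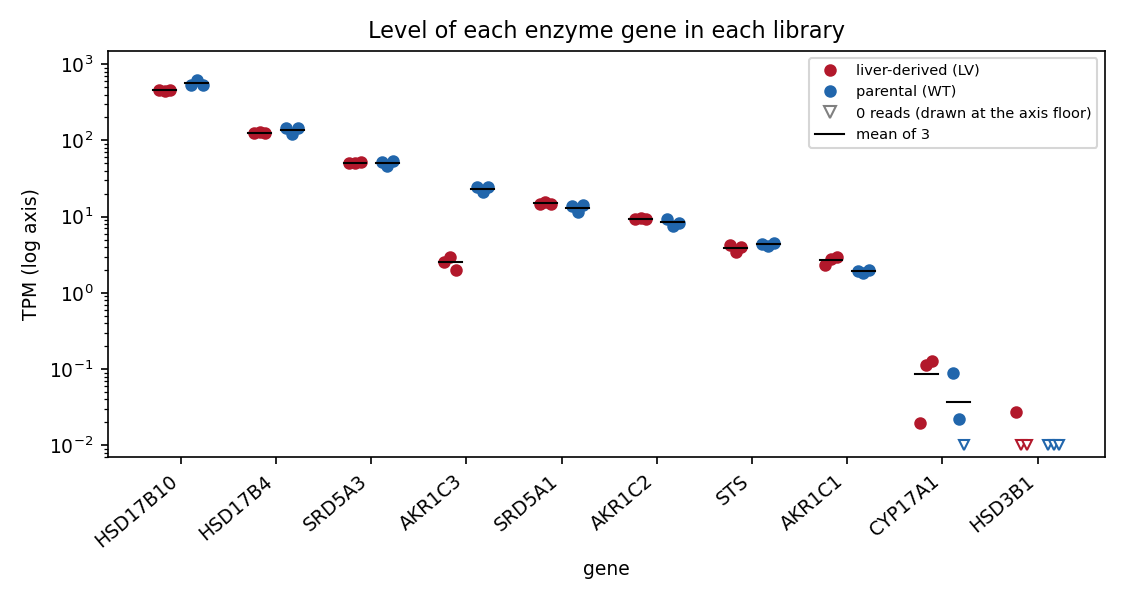
Level of each enzyme gene in each library, as TPM on a log axis, with LV (red) left of WT (blue), a line at the mean of 3 libraries, and open triangles at the axis floor for libraries with 0 reads. AKR1C3 is the gene whose groups lie far apart, at 2.02 to 2.95 TPM in LV and 21.0 to 24.7 TPM in WT, while the groups of each other tested gene lie close together.

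The AKR1C genes lie side by side on chromosome 10 and encode closely related proteins, so the sequences that set them apart decide how well their reads can be divided. AKR1C1 is at chr10:4963253-4983283 on the plus strand, AKR1C2 at chr10:4987400-5018031 on the minus strand and AKR1C3 at chr10:5035354-5107686 on the plus strand, in GRCh38 coordinates as the count tables give them. Over their 972 coding bases AKR1C1 and AKR1C2 differ at 19 positions, AKR1C1 and AKR1C3 at 79, and AKR1C2 and AKR1C3 at 85. The 60-base coding stretch in which AKR1C3 has the most bases found in neither of the other 2 genes, 11, covers coding positions 382 to 441 in exon 4 of each gene. It is shown from the GENCODE 29 transcripts on GRCh38, on the strand of each gene, with capitals at the positions where the 3 genes are not all alike.
AKR1C1 (chr10:4968321-4968380, plus strand): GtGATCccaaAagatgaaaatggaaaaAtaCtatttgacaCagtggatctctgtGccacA
AKR1C2 (chr10:4999206-4999265, minus strand): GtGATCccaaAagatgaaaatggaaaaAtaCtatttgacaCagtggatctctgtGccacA
AKR1C3 (chr10:5098814-5098873, plus strand): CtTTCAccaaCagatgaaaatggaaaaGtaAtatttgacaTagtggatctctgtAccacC
AKR1C1 and AKR1C2 are identical over this stretch, whereas AKR1C3 differs from both. Reads were 150 bases long, per the labels. Of the 823 stretches of 150 coding bases in each gene, 41 (4.98%) of AKR1C1, 63 (7.65%) of AKR1C2 and 22 (2.67%) of AKR1C3 also occur unchanged in a transcript of another AKR1C gene. Over the whole transcript used, with its untranslated parts, it was 743 of 6556 stretches for AKR1C1 and 765 of 3607 for AKR1C2, while the transcript used for AKR1C3 held the coding part alone. Reads from those stretches could be divided wrongly or dropped, and this holds most for AKR1C1 against AKR1C2. How the counting treated reads that match several places is not given in the sources used here.

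AKR1C3 is the main reductase of androstenedione to testosterone in prostate tumour cells, and it also makes prostaglandin F. Its level was 3.29, 3.79 and 2.62 CPM in LV replicates 1 to 3, against 30.0, 27.7 and 30.1 CPM in WT replicates 1 to 3. The reads behind these levels numbered 172, 106 and 127 in LV and 1455, 1259 and 1587 in WT. Every LV library lay far below every WT library, with a gap many times the spread within either group. The mean level was 3.23 ± 0.591 CPM in LV and 29.3 ± 1.32 CPM in WT (SD, n = 3 each). This was 9.17-fold lower in LV, or -3.20 as a log2 fold change (SE 0.13, 95% interval -3.49 to -2.91), with an adjusted p of 2.33e-07 by edgeR's quasi-likelihood test. Only 312 genes (1.62%) of the 19255 tested were at least 8-fold lower in LV and past the threshold. By fold change AKR1C3 stood at rank 252 from the lowest of all tested genes (1.31%), and at rank 196 of the 14645 protein-coding ones. AKR1C3 passed the threshold in the same direction in 18 of 18 alternative analyses, with log2 fold changes of -3.29 to -2.80.

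AKR1C1 reduces progesterone and dihydrotestosterone to less active steroids. Its level was 5.80, 7.02 and 7.44 CPM in LV, against 4.65, 4.72 and 4.72 CPM in WT. All LV libraries were above all WT libraries, and the LV libraries were more spread. The mean was 6.75 ± 0.849 CPM in LV and 4.70 ± 0.0379 CPM in WT (SD, n = 3 each). AKR1C1 was thus 1.43-fold higher in LV, or 0.52 as a log2 fold change (SE 0.11, 95% interval 0.26 to 0.78), with an edgeR adjusted p of 0.00649. On the scale of log2(TPM + 0.1) tested with limma the change was 0.46 with an adjusted p of 0.0518, and without a filter on low TPM it was 0.33 on the log2(TPM + 1) scale with an adjusted p of 0.133.

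AKR1C2 inactivates dihydrotestosterone by reducing its keto group. It had 17.0, 17.8 and 17.4 CPM in LV, against 16.3, 14.3 and 14.5 CPM in WT. The groups did not overlap on this scale, but the gap was small beside the spread of WT, and in TPM the lowest LV value, 9.25, lay below the highest WT value, 9.30. As a log2 fold change this was 0.21 (SE 0.08, 95% interval 0.02 to 0.40), with an edgeR adjusted p of 0.0802. Without WT replicate 2 it was 0.17 with an adjusted p of 0.0201, in a fit in which 28.8% of all tested genes were higher.

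The leading AKR1C transcript differed between the groups. AKR1C3 held 18.1, 19.1 and 14.0% of the summed TPM of the 3 genes in LV, against 68.4, 69.0 and 70.4% in WT. AKR1C2 held 64.5 ± 1.55% in LV and 24.9 ± 1.13% in WT, and AKR1C1 held 18.4 ± 2.08% in LV and 5.76 ± 0.29% in WT (SD, n = 3 each). The sum itself was 14.1, 15.5 and 14.4 TPM in LV, against 35.6, 30.5 and 35.0 TPM in WT. AKR1C2 held the largest share in every LV library, and AKR1C3 held it in every WT library.

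**Figure D2:**
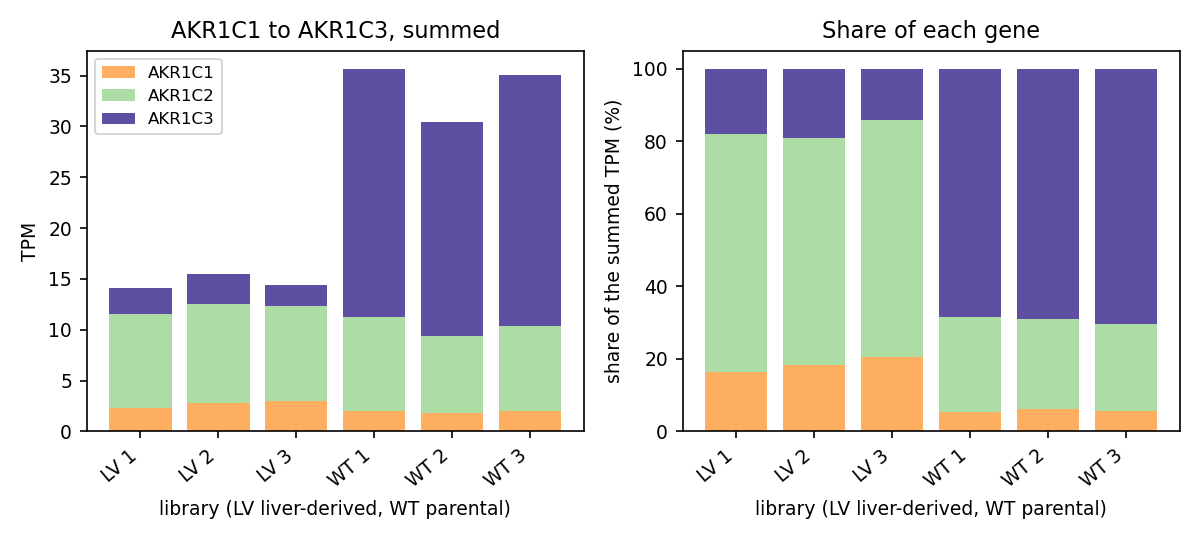
Summed TPM of AKR1C1, AKR1C2 and AKR1C3 (left) and the percentage of that sum held by each gene (right) in each library, with the 3 LV libraries before the 3 WT libraries. The sum is 14.1 to 15.5 TPM in LV and 30.5 to 35.6 TPM in WT, and AKR1C3 holds 14.0 to 19.1% in LV and 68.4 to 70.4% in WT.

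Since reads can be divided wrongly between these paralogs, the counts of all 8 rows of the AKR1C family were also summed and fitted as a single gene. The family sum was 26.2, 28.7 and 27.5 CPM in LV, against 51.1, 46.9 and 49.6 CPM in WT. Its log2 fold change was -0.84 (SE 0.08), with an edgeR adjusted p of 2.94e-05, and it stayed past the threshold in 19 alternatives, between -1.18 and -0.81. Moving reads between members of the family leaves this sum as it is, though reads dropped for matching several genes would be missing from it. The ratio of AKR1C3 to AKR1C1, as log2 of TPM with 0.1 added, was 0.13, 0.06 and -0.53 in LV, against 3.57, 3.44 and 3.56 in WT. The difference of -3.64 had an exact two-sided permutation p of 0.1, the smallest that 3 against 3 libraries allow, and an adjusted p of 0.1 over the 2 ratios tested.

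Around the cluster, 30 genes lay within 500 kb of the span of AKR1C1 to AKR1C3, of which 6 were tested. NET1, a guanine nucleotide exchange factor for RhoA, was higher, at 182, 179 and 180 CPM in LV, against 148, 122 and 143 CPM in WT, a log2 fold change of 0.39 (SE 0.08) with an edgeR adjusted p of 0.00551, or 0.0707 on unfiltered TPM. AKR1E2, a further aldo-keto reductase, had 1.16 ± 0.178 CPM in LV and 1.45 ± 0.406 CPM in WT (SD, n = 3 each), with an edgeR adjusted p of 0.314. In all, 2 of the 6 tested genes (33.3%), AKR1C1 and NET1, were higher, beside 17.5% of all tested genes. AKR1C3 was the lower one, 1 of 6 (16.7%) beside 21.3% of all tested genes. AKR1C4, the liver form of the family, was not tested, with 7, 1 and 3 reads in LV against 9, 7 and 6 in WT. None of the other 5 tested genes of the window passed the test as lower.

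The sequences upstream of the RefSeq starts show how far the 3 genes are alike just before those starts. The 250 bases before each start are printed from the RefSeq table (GRCh38.p14), on the strand of each gene, with capitals at bases that do not match AKR1C1 in a global alignment. AKR1C3 has 2 starts in the RefSeq set used, and both are shown. The counted spans of AKR1C2 and AKR1C3 reach further upstream than these windows, to positions 5018031 and 5035354. Any starts there are not covered.
AKR1C1 (chr10:4963165-4963414, plus strand): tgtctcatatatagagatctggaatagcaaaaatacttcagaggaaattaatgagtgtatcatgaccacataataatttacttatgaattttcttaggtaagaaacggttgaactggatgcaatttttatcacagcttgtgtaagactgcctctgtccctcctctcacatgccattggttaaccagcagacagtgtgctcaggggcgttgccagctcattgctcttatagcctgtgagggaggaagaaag
AKR1C2 (chr10:5003858-5004107, minus strand): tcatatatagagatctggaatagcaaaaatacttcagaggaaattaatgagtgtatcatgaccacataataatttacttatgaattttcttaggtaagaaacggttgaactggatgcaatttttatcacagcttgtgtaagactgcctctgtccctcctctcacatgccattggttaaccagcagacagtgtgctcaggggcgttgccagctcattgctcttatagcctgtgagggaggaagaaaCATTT
AKR1C3 (chr10:5048531-5048780, plus strand): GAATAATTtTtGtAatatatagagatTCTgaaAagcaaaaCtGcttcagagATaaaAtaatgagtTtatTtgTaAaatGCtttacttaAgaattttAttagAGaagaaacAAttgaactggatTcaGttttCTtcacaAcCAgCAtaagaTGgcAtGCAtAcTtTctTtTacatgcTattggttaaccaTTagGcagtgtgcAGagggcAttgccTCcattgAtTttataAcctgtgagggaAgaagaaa
AKR1C3 (chr10:5094164-5094413, plus strand): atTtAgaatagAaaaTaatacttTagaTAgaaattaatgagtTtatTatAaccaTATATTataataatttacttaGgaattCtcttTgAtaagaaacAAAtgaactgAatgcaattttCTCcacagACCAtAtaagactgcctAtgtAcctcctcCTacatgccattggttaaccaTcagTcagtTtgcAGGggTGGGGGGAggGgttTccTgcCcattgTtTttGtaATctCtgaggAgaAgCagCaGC
AKR1C1 and AKR1C2 share 245 of 246 aligned bases (99.6%), while AKR1C3 shares 76.8% of aligned bases with AKR1C1 at its first printed start and 78.6% at its second. AKR1C1 and AKR1C2, the pair with nearly the same upstream sequence, had log2 fold changes of 0.52 and 0.21, the second not past the threshold. AKR1C3, the gene with the more distant sequence, had -3.20. Whether the upstream sequence has a part in these differences was not tested. Motifs were sought in windows from 250 bases before to 50 bases after each start, on both strands unless stated. The antioxidant response element core bound by NRF2 (TGACNNNGC) occurs in 13.3% of all 35116 RefSeq promoter windows and TATAAA on the strand of the gene in 7.33%. A match of either motif cannot be a match of the other, and neither occurs in the windows of AKR1C1, AKR1C2 or AKR1C3, which says nothing about sites elsewhere.

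Genes with a pattern like that of AKR1C3 were sought by Pearson's r of log2(CPM + 1) over the 6 libraries among protein-coding genes. The 3 highest were SSX3, a cancer-testis antigen with close paralogs, at r = 0.9995, PPARA, a fatty-acid-sensing nuclear receptor, at 0.9994, and SYNM, an intermediate filament protein, at 0.9993. Their log2 fold changes were -1.65 for SSX3, -0.88 for PPARA and -0.67 for SYNM, all smaller in size than that of AKR1C3. The 6 libraries form 2 groups, so r here largely reflects the group difference, and 388 of 14637 genes had r above 0.99.

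SRD5A1 (chr5:6633343-6674386, plus strand) reduces testosterone to the more potent dihydrotestosterone and also reduces androstenedione. It is the main form of this reductase in advanced prostate cancer. SRD5A1 had 32.5, 33.8 and 32.2 CPM in LV, against 28.9, 25.9 and 29.4 CPM in WT. The LV libraries were all above the WT libraries, by less than the span of the WT group. Its log2 fold change of 0.23 (SE 0.08, 95% interval 0.05 to 0.41) had an edgeR adjusted p of 0.0504, just short of the threshold. It passed in 6 of 18 alternatives, among them without WT replicate 2 (0.17, adjusted p 0.00195) and DESeq2 (adjusted p 0.0438).

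SRD5A3 (chr4:55346109-55373096, plus strand) makes dolichol from polyprenol, a step needed for protein N-glycosylation. It had 64.0, 62.7 and 66.0 CPM in LV, against 63.0, 60.2 and 64.3 CPM in WT, and the groups overlapped. For SRD5A3 the log2 fold change was 0.04 (SE 0.07, 95% interval -0.12 to 0.19), with an edgeR adjusted p of 0.694, and its sign turned to -0.01 when libraries were scaled by size alone. SRD5A3-AS1 overlaps 4.48% of its exon bases on the opposite strand, with 75 to 131 reads in LV and 104 to 132 in WT, and the strand setting of the counting is not given. The log2 ratio of SRD5A1 to SRD5A3, from TPM with 0.1 added, was -1.77, -1.69 and -1.83 in LV, against -1.92, -2.01 and -1.93 in WT. The groups did not overlap, and the difference of 0.19 had an exact two-sided permutation p of 0.1, the smallest possible. SRD5A2, the form of normal prostate, was not tested, with 0, 0 and 1 reads in LV against 1, 0 and 0 in WT.

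HSD17B4 (chr5:119452443-119637199, plus strand), the multifunctional peroxisomal enzyme that also oxidises estradiol and androgens, had 297, 298 and 294 CPM in LV, against 327, 292 and 325 CPM in WT. WT replicate 2 lay below all LV libraries and the other WT replicates lay above them. The log2 fold change was -0.09 (SE 0.07, 95% interval -0.24 to 0.07), with an edgeR adjusted p of 0.353. Without WT replicate 2 it was -0.14 (SE 0.02) with an adjusted p of 5.57e-07.

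HSD17B10 (chrX:53431258-53434373, minus strand), the mitochondrial dehydrogenase that is also a subunit of RNase P, had 147, 141 and 148 CPM in LV, against 159, 202 and 159 CPM in WT. All LV libraries were below all WT libraries, and WT replicate 2 was far above its group. HSD17B10 had a log2 fold change of -0.26 (SE 0.10, 95% interval -0.48 to -0.03) with an edgeR adjusted p of 0.073. Without WT replicate 2 it was -0.13 (SE 0.03) with an adjusted p of 3.55e-05, smaller than with that library but past the threshold. In that fit 31% of all tested genes were lower and 28.8% higher.

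WT replicate 2 departed from the mean of WT replicates 1 and 3 by 0.34 (log2) for HSD17B10, whose longest transcript has a GC content of 57.6%, and by -0.16 for HSD17B4, with a GC content of 38.6%. Its departures were -0.17 for SRD5A1, -0.11 for AKR1C2, -0.11 for AKR1C3, -0.08 for SRD5A3, 0.01 for AKR1C1 and 0.00 for STS, with GC contents of 40.2 to 44.3%. In a fit with a GC curve per library, the log2 fold change was -0.12 for HSD17B10 (edgeR adjusted p 0.00853), -0.12 for HSD17B4 (0.136), 0.19 for SRD5A1 (0.00206) and -3.25 for AKR1C3 (8.96e-12). The departures were all small beside the difference of AKR1C3 between the groups. Without that library 3 of 8 enzymes (AKR1C1, AKR1C2 and SRD5A1) were higher and 3 of 8 (AKR1C3, HSD17B4 and HSD17B10) were lower. Of all genes tested in that fit 28.8% were higher and 31% lower.

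STS (chrX:7219456-7354810, plus strand), which frees dehydroepiandrosterone and estrone from their circulating sulfates, had 7.93, 6.41 and 7.35 CPM in LV, against 7.70, 7.82 and 7.94 CPM in WT. LV replicate 2, the library with the fewest reads, was the lowest, and the groups overlapped. The log2 fold change was -0.11 (SE 0.10, 95% interval -0.33 to 0.12), with an edgeR adjusted p of 0.445, and STS passed in 0 of 18 alternatives.

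HSD3B1 (chr1:119507198-119515054) and CYP17A1 (chr10:102830531-102837533, minus strand), the enzymes of the early steps from pregnenolone, were close to undetected. HSD3B1 had 1, 0 and 0 reads in LV, against 0 in each WT library. By the exact 95% Poisson limit, which covers counting error only, the LV sum of 1 read allows up to 0.0425 CPM and the WT sum of 0 reads up to 0.0256 CPM. CYP17A1 had 1, 3 and 6 reads in LV, against 4, 1 and 0 in WT. The sums of 10 reads in LV and 5 in WT give 0.0762 CPM (0.0366 to 0.14) in LV and 0.0347 CPM (0.0113 to 0.081) in WT, and a difference was not detectable at this depth. These counts are those of RNA in cells grown in serum-supplemented medium, and the enzymes' activity was not measured.

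**Figure D3:**
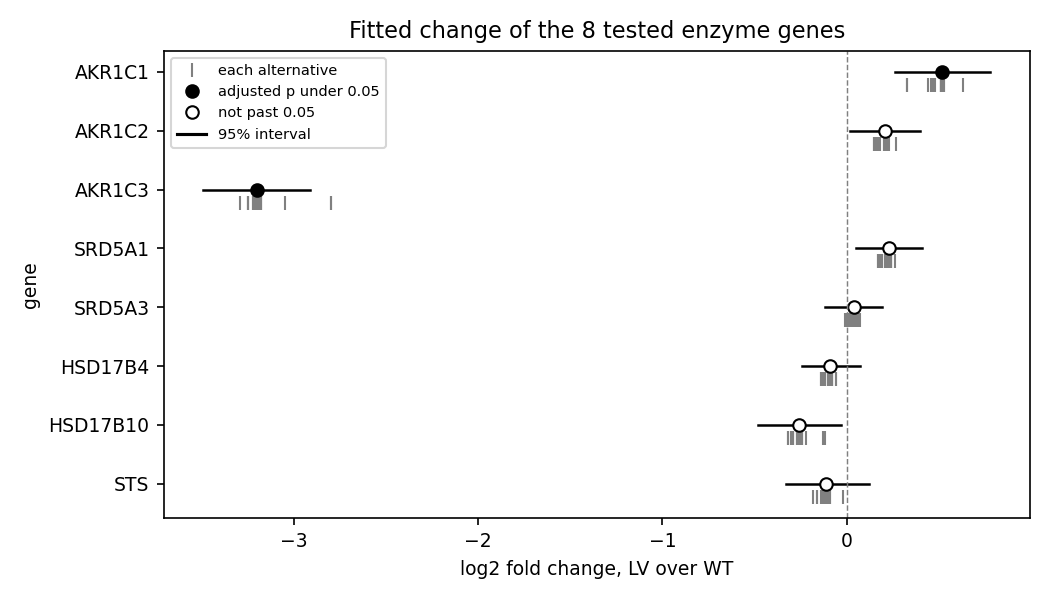
Log2 fold change of LV over WT for the 8 tested enzyme genes, with 95% intervals, filled where the edgeR adjusted p is under 0.05, and grey ticks for the alternative analyses. AKR1C3 lies at -3.20 and AKR1C1 at 0.52, and the other 6 lie between -0.26 and 0.23.

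The other genes of the chain from cholesterol were looked at as a list of 24 steroid-synthesis genes, of which 12 were tested, with 3 higher, 1 lower and a median log2 fold change of 0.22. For this and the following lists, the shares over all tested genes were 17.5% higher and 21.3% lower. The classical adrenal and gonadal steps had almost no reads: CYP11B1 and CYP11B2 had 0 reads in all libraries, CYP11A1 had 0, 1 and 1 reads in LV and 0, 0 and 1 in WT, and CYP19A1 had 1, 3 and 1 in LV and 3, 0 and 2 in WT. HSD17B3, the testicular maker of testosterone, had 5, 11 and 14 reads in LV against 3 in each WT library, and HSD3B2, the adrenal relative of HSD3B1, had 10, 0 and 2 reads in LV against 0 in each WT library, and neither was tested. Among adrenal cortex and gonad markers, 1 of 6 was tested and it did not pass, and CYP11B1 and MC2R were at 0 reads.

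HSD17B14, an oxidising hydroxysteroid dehydrogenase, was lower, with 0.555, 0.931 and 0.639 CPM in LV, against 3.13, 3.68 and 2.86 CPM in WT. It was 4.72-fold lower in LV, a log2 fold change of -2.24 (SE 0.20) with an edgeR adjusted p of 3.42e-05. HSD11B2, which inactivates cortisol, was higher at 26.4 ± 0.644 CPM in LV and 18.3 ± 3.6 CPM in WT, with a log2 fold change of 0.53 and an edgeR adjusted p of 0.0111. HSD17B12 and HSD17B11 were 0.47 and 0.43 higher on the log2 scale with edgeR adjusted p of 0.0318 and 0.0173, the second named after its values were seen. HSD17B12 no longer passed when any LV library was left out (adjusted p 0.0661 to 0.0999), with library size alone (0.0722) or on the TPM scales (0.107 to 0.196). HSD17B11 did not pass without LV replicate 1 (0.0523) or LV replicate 2 (0.0618), or on the TPM scales (0.074 to 0.143). The count of higher genes in this list was 1 without LV replicate 2 and 8 without WT replicate 2, which also gave 2 lower genes.

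Steroid sulfation and the electron donors of the P450 enzymes (13 genes, 11 tested) had 3 higher and 4 lower, with a median of -0.18. PAPSS1, which makes the sulfate donor of all sulfotransferases, was at 639, 639 and 641 CPM in LV, against 261, 250 and 261 CPM in WT. That is a log2 fold change of 1.31 (SE 0.06), or 2.49-fold higher, with an edgeR adjusted p of 4.44e-07. PAPSS2, the second enzyme of this kind, was higher too, at 7.74 ± 0.419 CPM in LV and 4.0 ± 0.452 CPM in WT, with a log2 fold change of 0.95 and an edgeR adjusted p of 1.62e-04. SULT2B1, a sulfotransferase of hydroxysteroids and cholesterol, was lower at 0.893 ± 0.155 CPM in LV and 1.81 ± 0.272 CPM in WT, with a log2 fold change of -1.0 and an edgeR adjusted p of 0.00357. SULT2A1, the adrenal and liver form, was not tested, with 0 reads in each LV library and 0, 1 and 3 in WT. FDX1, FDXR and CYB5R3, carriers of electrons to P450 enzymes or cytochrome b5, were also lower, with log2 fold changes of -0.55, -0.35 and -0.53 and edgeR adjusted p of 0.00269, 0.0472 and 0.0042, named after their values were seen. FDXR did not pass without WT replicate 3 (adjusted p 0.0558) or whichever LV library was left out (0.0673 to 0.19), nor with RLE factors (0.053) or unfiltered TPM (0.0554), and with a GC curve per library its log2 fold change was -0.12 (0.124).

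Other aldo-keto reductases (13 genes, 9 tested) had 2 higher, AKR7A3 and AKR7L, and 1 lower, AKR7A2, with a median of -0.19. AKR7A3, an aflatoxin aldehyde reductase, had 18.1, 16.3 and 17.2 CPM in LV, against 4.49, 4.91 and 4.68 CPM in WT, a log2 fold change of 1.87 (SE 0.09) with an edgeR adjusted p of 5.17e-07. AKR7L, its neighbour and close paralog, was at 3.66 ± 0.575 CPM in LV and 1.02 ± 0.211 CPM in WT, and reads may be divided wrongly between these paralogs. AKR7A2, the succinic semialdehyde reductase of the same subfamily, had a log2 fold change of -0.52 with an edgeR adjusted p of 0.00237. The lower count of this list was 2 without LV replicate 2, WT replicate 1 or WT replicate 2, and the higher count was 4 without WT replicate 2.

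Androgen glucuronidation removes androgens by coupling them to a sugar acid. In the list drawn up for it, 6 of 7 tested UGT2B genes were higher and none lower. How far each of these enzymes acts on androgens was not examined, so the count describes UGT2B genes and not that step. The median was 2.51, and the shares over all tested genes were 17.5% higher and 21.3% lower. UGT2B28 was at 3.89 ± 0.241 CPM in LV and 0.171 ± 0.121 CPM in WT, UGT2B11 at 13.0 ± 0.921 CPM in LV and 0.622 ± 0.24 CPM in WT, and UGT2B4 at 3.24 ± 0.572 CPM in LV and 0.568 ± 0.0486 CPM in WT (SD, n = 3 each). UGT2B7 was among the 6 on few reads, at 0.307 ± 0.0682 CPM in LV and 0.11 ± 0.0835 CPM in WT with an edgeR adjusted p of 0.0412, and it lost its call when any library other than WT replicate 1 was left out (0.0506 to 0.157), with DESeq2 (0.0652) and on unfiltered TPM (0.0902). UGT2B10 and UGT2B15 were also higher, with log2 fold changes of 2.51 and 1.62 (edgeR adjusted p 9.29e-06 and 4.70e-05). UGT2B17 did not pass, with 23, 13 and 13 reads in LV against 14, 6 and 11 in WT (edgeR adjusted p 0.112). UGT2B7, UGT2B10, UGT2B15 and UGT2B17 were named after their values were seen. These are close paralogs whose reads can be divided wrongly, and an antisense gene overlaps 17.9% of the exon bases of UGT2B11. Several UGT2B genes are also expressed in hepatocytes, whose markers summed to 78.9 to 82.6 CPM in LV and 62.8 to 72.5 CPM in WT with ALB, AMBP and APOA1 higher in LV, CPS1 and ASGR1 lower, and FGA at 0 reads. Their part in the result was not tested. Of 8 carriers listed for steroid uptake 5 were tested and 2, SLCO2A1 and SLCO4A1, were higher. SLCO1A2, SLCO2B1 and SLCO3A1, named after their values were seen, did not pass (edgeR adjusted p 0.0804, 0.584 and 0.917). SLCO2A1, a prostaglandin carrier, had 8.46, 6.62 and 7.29 CPM in LV, against 1.32, 1.12 and 1.27 CPM in WT, a log2 fold change of 2.59 with an edgeR adjusted p of 1.25e-06, and SLCO4A1 had a log2 fold change of 0.55 with an edgeR adjusted p of 0.00104.

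NRF2, the transcription factor of the oxidative stress response, is a known activator of AKR1C genes, and its other targets were counted beside them. Of 24 tested target genes 9 were higher (37.5%) and 1 was lower (4.17%), with a median log2 fold change of 0.17. NQO1, a quinone reductase, had 546, 537 and 550 CPM in LV, against 75.5, 78.5 and 74.3 CPM in WT, a log2 fold change of 2.84 (SE 0.07), or 7.16-fold higher, with an edgeR adjusted p of 1.60e-08. ME1, the cytosolic malic enzyme, rose by a log2 fold change of 1.69, and TXNRD1, a thioredoxin reductase, by 0.97, with edgeR adjusted p of 4.33e-06 and 9.57e-06. The list ranged from -0.49 to 2.84, beside 0.52 for AKR1C1 and -3.20 for AKR1C3. That range is wide, as the median absolute log2 fold change over all tested genes was 0.29. Whether NRF2 has a part in the differences of the AKR1C genes was not tested. Without WT replicate 2 the list had 14 higher and 4 lower, and it had 0 lower whichever LV library was left out.

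Among 6 NRF2 regulators 4 were higher and none lower, with NFE2L2, the NRF2 gene itself, at a log2 fold change of 0.42 (edgeR adjusted p 0.00869, or 0.0892 on unfiltered TPM). The repressor BACH1 was at 0.73 (adjusted p 0.00244) and the autophagy receptor SQSTM1, which binds the NRF2 inhibitor, was at 0.74 (adjusted p 7.36e-05). NFE2L2 and SQSTM1 are overlapped by other genes with reads on the opposite strand, MRNIP over 20.7% of the exon bases of SQSTM1. Regulators of steroidogenic genes (8 genes, 4 tested) had 4 higher, and 2 without LV replicate 1, LV replicate 3 or WT replicate 3. NR5A2, a nuclear receptor that activates steroidogenic genes, had 9.02, 8.09 and 8.09 CPM in LV, against 1.05, 1.5 and 1.55 CPM in WT, a log2 fold change of 2.62 (SE 0.15) with an edgeR adjusted p of 1.91e-06. NR3C1, the glucocorticoid receptor, was at 0.74 (adjusted p 8.14e-04), and GATA6 was at 0.35 (adjusted p 0.014), the last not past the threshold without LV replicate 1 (0.0534), LV replicate 3 (0.0669) or WT replicate 3 (0.0555).

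**Figure D4:**
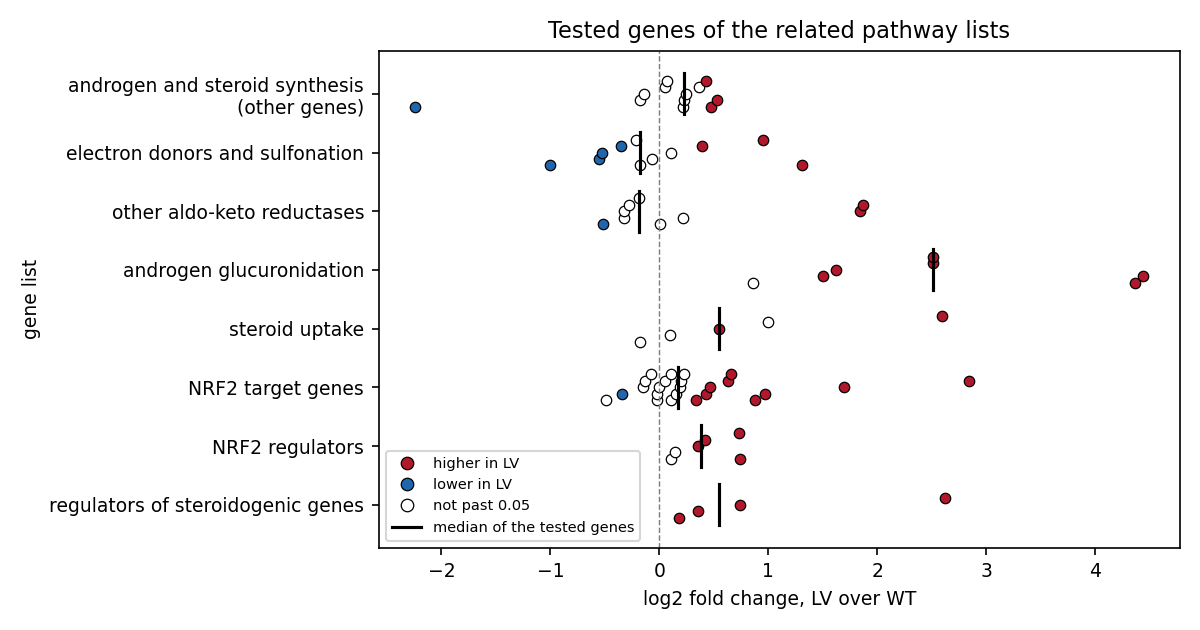
Log2 fold change of LV over WT for the tested genes of each related list (red higher, blue lower, white not past an adjusted p of 0.05), with a line at the median of the list. The glucuronidation genes lie at 0.86 to 4.44 with a median of 2.51, and the other lists have medians between -0.19 and 0.55.

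Over all 8 lists, with each gene counted once, 33 of 78 tested genes (42.3%) were higher and 7 (8.97%) lower, beside 17.5% higher and 21.3% lower among all tested genes. Without WT replicate 2 the lists had 46 higher and 13 lower, beside 28.8% and 31% of all genes. The lists were drawn up with results of these data known, so their counts are a description of these genes.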

How the data were processed

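RNA from 22Rv1 cells was sequenced as poly(A)-selected, paired-end Illumina libraries, per the labels' protocols. Reads were processed with Trimmomatic 0.36, STAR 2.5.2b and featureCounts of Subread 1.5.2 on GRCh38, per the submitters' processing notes. Their parameters, the annotation and the strand setting are not given in sources used here. The authors deposited raw counts per gene and library, with coordinates and lengths, and a table of TPM for the same libraries. TPM recomputed from the counts differed from the deposited TPM by a relative difference of at most 4.82e-05. Rows that named no gene, 391182 at the end of the deposited TPM file, were not used.

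Counts were fitted with edgeR 4.0.16 (R 4.3.3): filterByExpr, TMM factors, robust quasi-likelihood fit, group as the only term, Benjamini-Hochberg adjustment over 19255 genes, threshold 0.05. Libraries varied by 9.57% (common biological coefficient of variation). CPM values carry the TMM scaling. An error is the SD over 3 libraries or the SE of a fitted log2 fold change. TPM were tested with limma 3.58.1 as log2(TPM + 1) with TPM of at least 1, a scale that understates changes of low genes. Ratios of genes used an exact permutation test. The alternatives comprised 3 other scalings (RLE, upper quartile, library size), 2 other filters (none, or at least 1 CPM), 2 other tools (DESeq2 1.42.0, limma-voom), a GC curve per library, the replicate number as a block, the omission of each library, and TPM settings with a pseudocount of 0.1 or unfiltered. On simulated counts (18958 genes) the fit recovered 69.7% of 66 genes changed 1.5-fold, 85.9% of 64 changed 2-fold and 100% of 64 changed 4-fold, with 6 false calls. The simulation gave every gene the common dispersion, changed few genes and had no outlying library. Its rates need not hold for these data. By chi-square on genes averaging 50 counts or more, all pairs of libraries differed beyond sampling noise, and each counted as 1 replicate.

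The enzymes and gene lists were chosen with earlier results of these data known. Genes named are the 10 enzymes, genes with at least 1 CPM within 500 kb of the AKR1C cluster, up to 3 past the threshold per list by size of change, and the 3 protein-coding genes most correlated with AKR1C3. Some genes and motifs that were counted are not reported here. Symbols came from a table that matched 98.1% of gene identifiers. Biotype, GC content and coding sequences came from GENCODE 29, which held 99.0% of them, and promoters from RefSeq.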

Additional observations from a re-analysis of the deposited data

How the results depend on the processing

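AKR1C3 and the AKR1C family sum passed the threshold in the same direction under each alternative run. Without WT replicate 2 there were 5714 genes higher and 6156 lower. Leaving out each library in turn gave 2432 to 5714 higher and 3168 to 6156 lower genes, and a GC curve per library gave 6110 higher. Among the 8 tested enzymes, 2 were higher with RLE factors, with CPM of at least 1, with DESeq2, with limma-voom and with the GC curve, and 0 on the log2(TPM + 0.1) scale and on TPM without a filter. Over all genes these settings gave, in that order, 3512, 3084, 3451, 3496, 6110, 2635 and 2413 higher, beside 3375 in the main fit. Leaving out a library gave 1 to 3 higher and 1 to 3 lower. The number lower was 2 with library size alone, without a filter, with the GC curve, and under each of the TPM settings. Over all genes these gave 4745, 4711 and 4945 lower in that order, and 3783 to 3924 on the TPM settings, beside 4101 in the main fit. Over all lists, leaving out a library gave 28 to 46 higher and 5 to 13 lower genes. SRD5A3 changed sign, to -0.01 with library size alone (adjusted p 0.886) and to -0.00 on each TPM scale (limma adjusted p 0.987, 0.986 and 0.992). AKR1C1 lost its call on the 2 TPM scales named with it, SRD5A1 passed in 6 of 18 alternatives, HSD17B10 in 8, and AKR1C2 and HSD17B4 in 1 each, without WT replicate 2. The causes were not tested. The ratio of AKR1C3 to AKR1C1 differed by -3.76 to -3.43 and that of SRD5A1 to SRD5A3 by 0.15 to 0.22 when a library was left out. The exact permutation p was then 0.2, the smallest that 2 against 3 libraries allow. With ratios of counts in place of TPM it was 0.1.

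Both groups use replicate numbers 1 to 3. The deviations of same-numbered libraries from their group means correlated at -0.127, -0.0902 and 0.0487 over 11504 genes. Those of differently numbered libraries correlated at -0.121 to 0.132. With 3 libraries in each group and WT replicate 2 standing apart, these values cannot tell whether the numbers pair the libraries. With the replicate number as a block, 3169 genes were higher and 3883 lower, 1 enzyme was higher and 1 lower, the lists had 33 higher and 7 lower, and the family sum was -0.84. The number of libraries, reads shared among paralogs and the few reads of HSD3B1 and CYP17A1 limit what these data can show.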
